A study of Homo sapiens with 4 samples.

Results

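Olfactory receptor genes were the assigned genes of 162 of the 29302 regions called in a ChIP-seq comparison of T98G cells, an established human glioblastoma line. The regions were taken by symbol alone: every region whose assigned gene was written as OR, a family number, a subfamily letter and a member number, with or without a closing P for pseudogene. They belonged to 138 genes of the 17169 named in the table, with 74 regions at 69 intact (protein-coding) genes and 88 regions at 69 pseudogenes. No measured value was used in choosing them.

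The series held 4 samples, a ChIP and an input sample of cells carrying an empty vector and the same pair of cells overexpressing LGP2, with 1 library per group. LGP2 (gene DHX58) belongs to the RIG-I-like RNA helicases of the cytosol, and all cells were grown in DMEM with fetal bovine serum. Which antibody was used with LGP2 overexpression is not given in the labels or the study's methods; the vector samples are listed in the study under ChIP-seq for crotonylated lysine, a histone and protein acylation. The values are normalized read densities of the 2 ChIP libraries, from which whole reads were recovered for each region. Reads given for a region are those of a window around it, inferred to be 2 kb wide. The called receptor regions themselves had a median width of 312.5 bp, and reads within them were not recovered. The input libraries had no values and were not analysed here. Whether the receptor genes are silent in these cells could not be checked, since no RNA was measured.

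Olfactory receptors are G-protein-coupled receptors of the sensory neurons of the nose, and a mature neuron is known, from work in mouse, to express a single allele of a single receptor gene while the rest are held in compact heterochromatin. The coding sequence of a receptor usually lies in a single exon, and the genes stand side by side in clusters that also hold many decayed copies. Receptors of class I resemble those of fish, and class II holds the larger, tetrapod-expanded group. A bound receptor acts through the G protein subunit GNAL and the cyclase ADCY3 on cyclic-nucleotide-gated channels.

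Only a pair of promoter windows in the RefSeq set was reached by a region assigned to the same receptor gene. These are shown because the data bear on sequence directly at them. They are those of OR1S2 (minus strand, chr11:58204093-58204392) and OR7C2 (plus strand, chr19:14941239-14941538), 250 bases before to 50 after the annotated start, from RefSeq on GRCh38.p14. In each, the sequence from the annotated start opens with ATG, a start codon. The windows may thus lie before the coding sequence and not at a mapped transcript start, which was not checked. Capitals mark bases inside the called region, 273 of 300 at OR1S2 and 210 of 300 at OR7C2.
OR1S2: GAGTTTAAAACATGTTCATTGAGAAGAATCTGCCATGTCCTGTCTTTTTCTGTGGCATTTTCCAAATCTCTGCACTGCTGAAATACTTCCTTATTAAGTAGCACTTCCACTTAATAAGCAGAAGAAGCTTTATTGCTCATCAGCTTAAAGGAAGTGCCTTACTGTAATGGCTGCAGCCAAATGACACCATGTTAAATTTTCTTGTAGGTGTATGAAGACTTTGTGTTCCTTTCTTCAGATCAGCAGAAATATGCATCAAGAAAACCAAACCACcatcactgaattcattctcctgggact
OR7C2: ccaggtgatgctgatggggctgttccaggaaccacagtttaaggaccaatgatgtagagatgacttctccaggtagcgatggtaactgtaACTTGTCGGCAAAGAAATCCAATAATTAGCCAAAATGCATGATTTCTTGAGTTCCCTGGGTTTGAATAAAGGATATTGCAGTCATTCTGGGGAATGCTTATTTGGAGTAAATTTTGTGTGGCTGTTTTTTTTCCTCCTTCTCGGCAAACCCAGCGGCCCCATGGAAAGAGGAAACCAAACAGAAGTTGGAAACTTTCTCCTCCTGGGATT
At the OR1S2 region the window of 2 kb held 5 LGP2 reads and 2 vector reads, and the region was called only with LGP2. At the OR7C2 region the window held 0 LGP2 reads and 4 vector reads, and the region was called only with the vector. These annotated starts therefore carried calls of opposite libraries, each with a handful of reads, which need not lie on the printed bases.

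Letter patterns known from receptor promoters were searched on both strands, and overlapping matches were allowed. CCCNNGGG, the core bound by EBF factors, stood in 8.02% of 324 receptor promoter windows and in 19.1% of all 35116 windows of that length. TAATTA, a core of homeodomain factors such as LHX2 that lies within many homeodomain sites, stood in 22.2% and 4.84%. TATAAA, the core of the TATA box, stood in 34.6% and 11.5%. The receptor windows were low in G and C, with a median of 37.7% against 58.7% over all windows. Windows of genes with a called region held the patterns in 8.33%, 23.3% and 31.7% of 60 windows, and those of receptor genes without one in 7.95%, 22% and 35.2% of 264. The median GC content of these groups was 37.8% and 37.7%, so the genes with a region did not stand apart in sequence from the other receptor genes by these measures. OR7C2 held 1 match, TAATTA at position 113 counted from the first printed base, and OR1S2 held none of the patterns. Windows were on hand for 312 of the 864 receptor genes in RefSeq, and for 58 of the 138 genes with a region. Only those of OR1S2 and OR7C2 were reached by a region of their gene, so these shares say little about sequence at the calls. All windows lie at annotated starts, which at receptor genes may be the start codon, so these shares need not describe promoters.

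Calls at receptor genes were split between the libraries as in the whole table. Of the 162 regions, 89 were called only with LGP2, 73 with the vector alone and 0 in both. The share called only with LGP2 was 54.9% (exact Clopper-Pearson 95% interval 46.9 to 62.8%), and over the whole table it was also 54.9%. The vector-only share over the table was 44.9%. Regions called in both libraries made up 0.27% of the table (79 regions), and 0 of 162 allows a share of up to 1.85% at the receptor genes (3 counts of the total), so a shortage of shared regions was not detectable at this number.

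**Figure D1:**
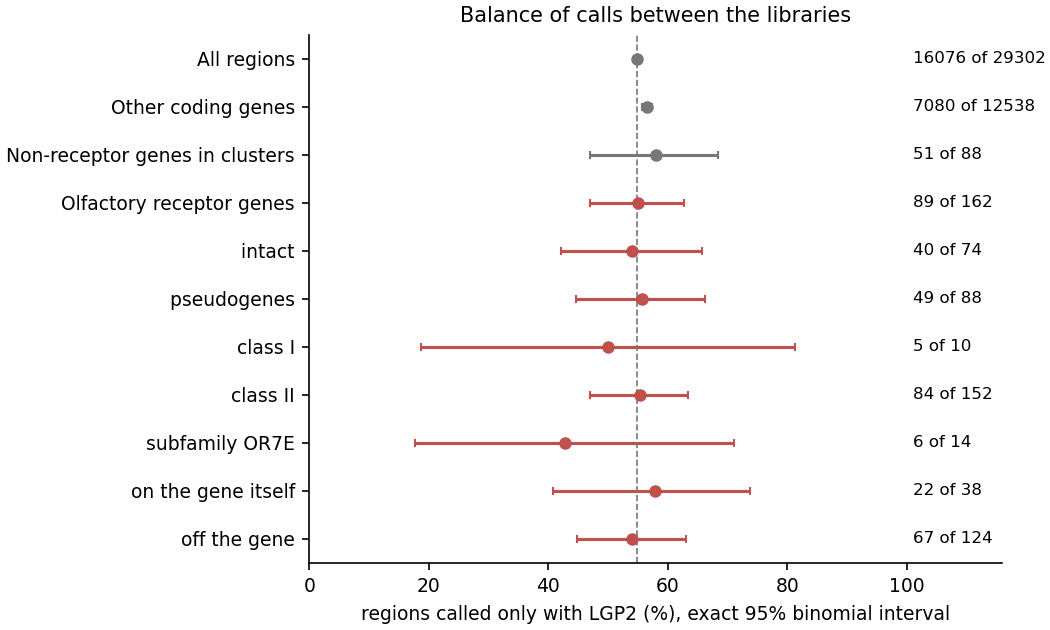
Share of regions called only with LGP2 (x axis, percent) in the whole table, in comparison groups (grey) and in groups of olfactory receptor regions (red), with exact 95% binomial intervals and the counts at the right. The dashed line is the share over all regions, 54.9%, and it lies within the interval of every olfactory receptor group drawn.

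Other parts of the table that resemble the receptor genes gave similar shares. Among other protein-coding genes 56.5% (55.6 to 57.3%) of regions were called only with LGP2. Among other unprocessed or unitary pseudogenes it was 54.6% (50.9 to 58.3%). Of 88 regions assigned to non-receptor genes that lie inside the receptor clusters, 51 were called only with LGP2, 58.0% (47.0 to 68.4%).

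The reads behind each receptor region were few. The median was 5 reads over both libraries together, as in the whole table, and the highest receptor region held 9 where the table reached 163. Summed over the 162 regions, 389 reads came from the LGP2 library and 424 from the vector library, an LGP2 share of 47.8% (44.4 to 51.3%) against 48.9% (48.6 to 49.1%) over the table. Regions called only with LGP2 held 2 to 6 LGP2 reads with a median of 3, and a median of 1 vector read. Regions called only with the vector held 2 to 7 vector reads with a median of 4, and a median of 1 LGP2 read. The commonest pattern was 3 LGP2 reads and 1 vector read, found at 17 regions, followed by 1 LGP2 read and 3 vector reads at 10. Intervals cover counting error only, and since reads carry no molecular identifiers, they may count copies of a molecule more than once.

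**Figure D2:**
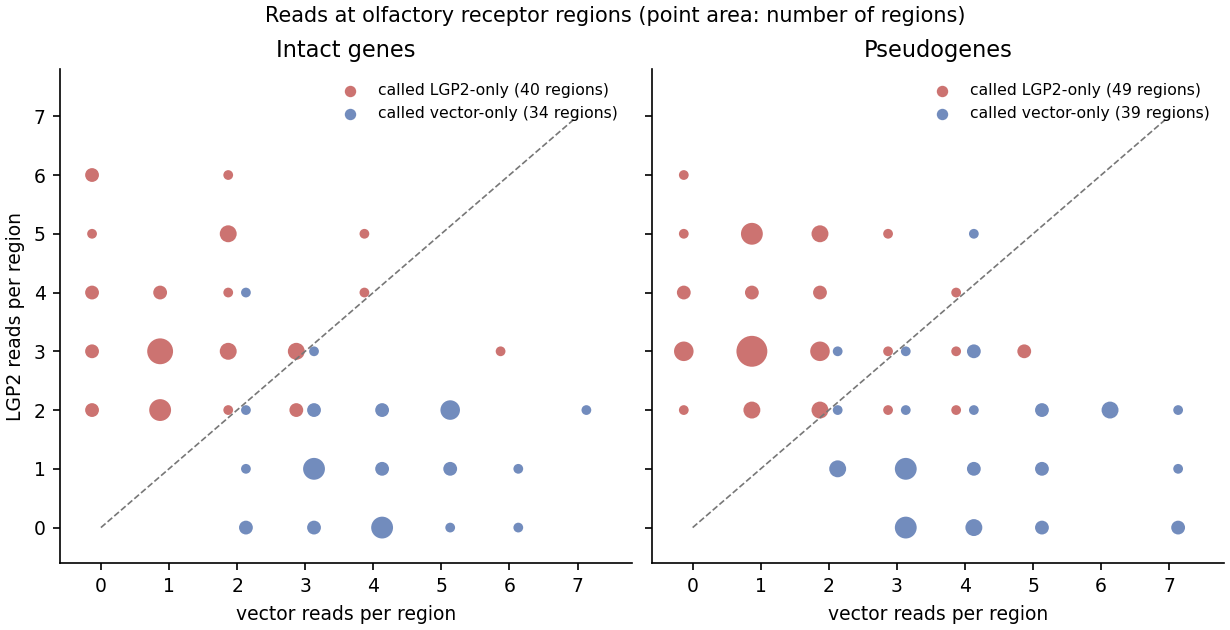
Reads per region in the vector library (x axis) and the LGP2 library (y axis) at intact genes (left) and pseudogenes (right), with point area proportional to the number of regions, colours for the calling library, points shifted slightly sideways by colour and a dashed line of equal reads. No region exceeds 7 reads in either library, and both panels hold points of both colours on either side of the line.

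The call did not mean that the other library was empty in the window. It held 0 reads at 41 receptor regions, 25.3% (18.8 to 32.7%), against 27.1% in the table. At 15 receptor regions (9.26%) the library that was not called had the higher density, against 7.33% in the table. These include vector calls with equal reads, 3 and 3 at 2 regions and 2 and 2 at 2, where only the scaled density was higher. OR4D1 is a case by reads as well, called only with LGP2 at 3 LGP2 reads and 6 vector reads. For no receptor region did the exact Poisson intervals of the libraries fail to overlap, where 0.0546% of the table (16 regions) did so. The exact interval of the LGP2 share of reads left out 50% at 6 receptor regions (3.70%) and at 2.44% of the table.

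**Figure D3:**
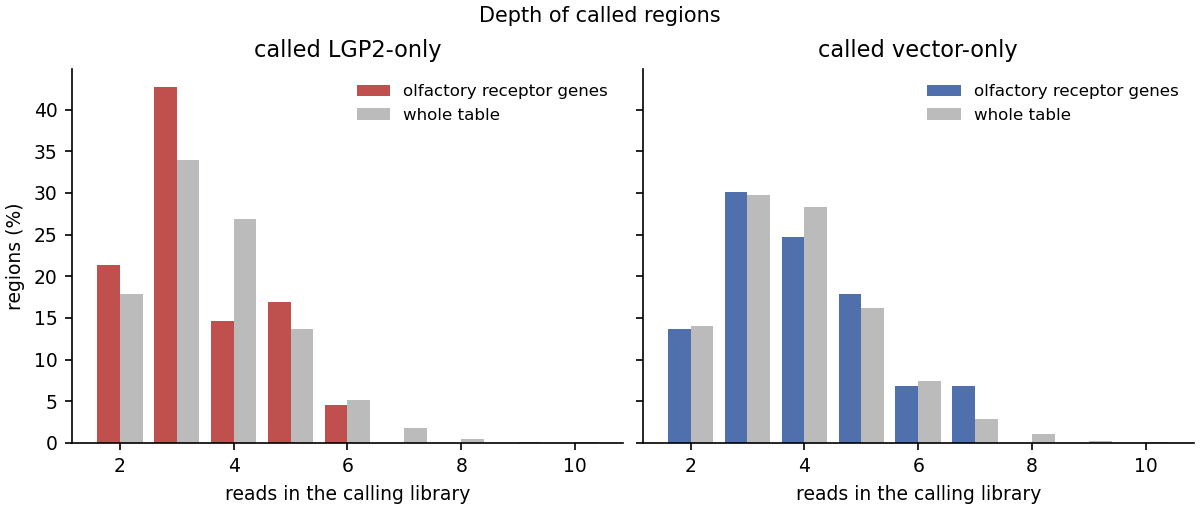
Percentage of regions (y axis) by reads in the library that called them (x axis), for regions called only with LGP2 (left) and only with the vector (right), with coloured bars for olfactory receptor genes and grey bars for the whole table up to 10 reads. Receptor regions called with LGP2 peak at 3 reads (38 of 89, 42.7%, whole table: 33.9%). They stand at 14.6% at 4 reads (13 regions, whole table: 26.9%) and 16.9% at 5 reads (whole table: 13.7%). With 5 or more reads were 19 of the 89, and 3424 of 16076 in the whole table.

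On the log2 scale of the density ratio (LGP2 over vector, 1 read added to each library), receptor regions lay where the table lay. The median was 0.15 in both. At 2-fold or more higher with LGP2 stood 51 receptor regions (31.5%), against 29.5% of the table, and 38 (23.5%) stood at 2-fold or more lower, against 25.2%. Since a region was called in 1 library, the direction of its ratio is tied to the call. Of the receptor regions past 2-fold, 57.3% were higher (whole table: 53.9%). Scaled by the reads each library had at the other library's regions, this became 64 higher and 29 lower, or 68.8% (whole table: 66.2%), with medians of 0.48 for receptors and table. Scaled to a table median of 0.00, it became 34 higher and 48 lower, or 41.5% (whole table: 43.7%). The receptor genes thus followed the table under each scaling. With regions of 0 reads set at a floor of 3 reads, 36 (22.2%) were 2-fold or more higher and 17 (10.5%) lower, against 18.3% and 10.6% of the whole table, and the median was 0.00 in both.

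The largest ratios belonged to regions with no read in the other library. OR1L1, OR2V1 and the pseudogene OR8B9P each held 6 LGP2 reads (exact Poisson interval 2.20 to 13.1) and 0 vector reads. With 0 reads set at the floor of 3, this was 2.18-fold higher on the density scale. That value is not a lower bound, since the read intervals of the libraries overlap. The OR1L1 region (chr9:122658785-122659520) lay 2046 bp from the gene's start, that of OR2V1 (chr5:181124290-181124715) lay 589 bp away, and that of OR8B9P (chr11:124495539-124495933) was intergenic, 12670 bp away. The pseudogene OR13Z1P had a region 15 bp from its start. It and OR2AT4, a receptor also known from skin keratinocytes, followed with 5 LGP2 reads and 0 vector reads. OR4A44P, OR6D1P, OR8B12 and OR8U1 held 4 and 0, and OR2L2 held 3 and 0. Both intact genes and pseudogenes stood at this end, with 6 and 4 of the 10 named regions, against 74 and 88 of all receptor regions. The last place was tied among 6 regions with 3 and 0 reads and went to OR2L2 by the alphabet, so this split depends on the tie rule.

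At the vector end, the pseudogenes OR10AK1P and OR7E14P each held 0 LGP2 reads and 7 vector reads (2.81 to 14.4). With 0 reads set at the floor of 3, this was 2.14-fold lower with LGP2 on the density scale, again with overlapping read intervals. OR10AK1P (chr11:55955878-55956468) was reached 1162 bp from its start, and the OR7E14P region (chr11:17047149-17047394) was annotated by the authors to an intron of that gene, although it lay 4492 bp outside the RefSeq span. OR5K1 (chr3:98454240-98455000) held 0 LGP2 and 6 vector reads (2.20 to 13.1), 1.84-fold lower on that scale at the same floor. OR5K1 and the 5 genes of this and the preceding paragraph with 6 or 7 reads against 0 were the only receptor genes whose interval of the read share left out 50%. OR2AI1P, OR2M4 and OR2U1P followed with 0 and 5 reads, and OR10B1P, OR10H5, OR13J1 and OR5BA1P with 0 and 4.

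The receptor regions with the highest mean level in both libraries were close to even or leaned either way. OR1D3P and OR9A2 each held 5 LGP2 and 4 vector reads (log2 ratio 0.43), and yet the first was called only with the vector and the second only with LGP2. OR7E122P and OR8K3 held 4 and 4 reads and were called with LGP2. OR2AO1P and OR52E8 held 2 and 7 (log2 ratio -1.25) and were called with the vector. OR7A1P and OR7E47P held 3 LGP2 and 5 vector reads and were called with LGP2, and OR7E126P held 5 and 3. Equal reads per window thus went with different calls. The reads may differ within the narrower called regions, where they were not recovered.

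Intact genes and pseudogenes did not differ detectably in the balance of the libraries. Of 74 regions at intact genes, 40 were called only with LGP2, 54.1% (42.1 to 65.7%), and of 88 at pseudogenes, 49, 55.7% (44.7 to 66.3%). The difference was -1.63 percentage points with a Newcombe 95% interval of -16.6 to 13.4, which leaves room for a sizeable difference in either direction. The LGP2 library gave 173 of the reads at intact genes against 191 from the vector, 47.5% (42.3 to 52.8%). At pseudogenes it gave 216 against 233, 48.1% (43.4 to 52.8%). The median log2 ratio was 0.15 at intact genes and 0.14 at pseudogenes. At 2-fold or more higher were 29.7% and 33.0% of regions, and at 2-fold or more lower 23.0% and 23.9%.

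Reference coverage was also alike within counting error. RefSeq lists 864 receptor genes by the same symbol rule, 390 coding and 474 pseudogenes. A region was assigned to 69 of 390 intact genes (17.7%, 14.0 to 21.8%) and to 69 of 474 pseudogenes (14.6%, 11.5 to 18.1%), a difference of 3.14 points (-1.76 to 8.15). Counting only regions within 10 kb of the start, 59 intact genes (15.1%) and 54 pseudogenes (11.4%) had one, a difference of 3.74 points (-0.783 to 8.39). Coverage over all reference genes was not counted. Neither these shares nor the coverage of the gene lists below is therefore read as high or low. The other library held 0 reads at 27.0% of intact and 23.9% of pseudogene regions, a difference of 3.16 points (-10.1 to 16.6).

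The groups did differ in where the regions lay. At intact genes 32 of 74 regions (43.2%, 31.8 to 55.3%) overlapped the RefSeq span of the gene, and at pseudogenes 6 of 88 (6.82%, 2.54 to 14.3%), a difference of 36.4 points (23.5 to 48.3). With introns and exons that the authors' annotation gives to the gene added, the pseudogene count was 10 and the difference 31.9 points (18.4 to 44.3). With the span of the transcript assigned by the authors in place of RefSeq, 23 of 74 and 7 of 88 regions overlapped, a difference of 23.1 points (11.1 to 35.1). Counted over reference genes, 30 of 390 intact genes (7.69%) and 6 of 474 pseudogenes (1.27%) were overlapped, a difference of 6.43 points (3.74 to 9.58). The annotated span moves with this result, since intact genes had a median span of 2985 bp and pseudogenes 938 bp; its part in the result was not tested. Promoter regions, defined as within 3 kb of the assigned transcript start, made up 56.8% (44.7 to 68.2%) of intact and 34.1% (24.3 to 45%) of pseudogene regions, a difference of 22.7 points (7.29 to 36.7). The median distance to the start was 2569 bp at intact genes and 6273 bp at pseudogenes.

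**Figure D4:**
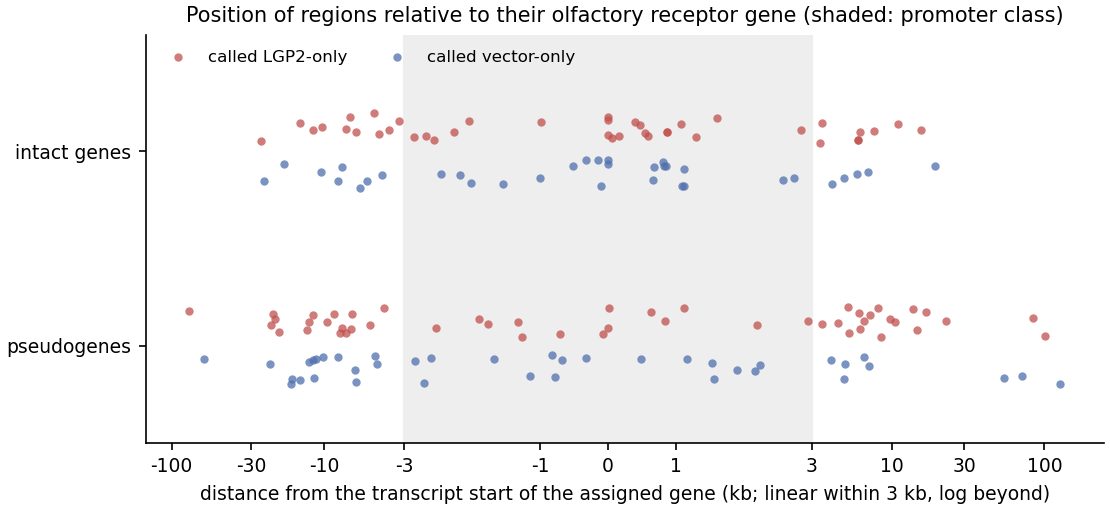
Distance of each region from the transcript start of its assigned olfactory receptor gene (x axis, kb, linear within 3 kb and logarithmic beyond, negative upstream), for intact genes and pseudogenes, with colours for the calling library and the promoter class shaded. Intact genes have 42 of 74 regions in the shaded span and pseudogenes 30 of 88.

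Regions of all receptor genes together lay closer to their gene than those of the table. The median distance was 4280 bp against 13202 bp, and 124 regions (76.5%) lay within 10 kb against 43.2%. Promoter regions made up 44.4% (36.6 to 52.4%) of receptor regions, 20.1% of the table and 26.9% of regions at other coding genes. Regions of non-receptor genes inside the same clusters gave 44.3% (33.7 to 55.3%), close to the receptor value. Upstream of the start lay 82 receptor regions, and 80 lay at it or downstream. The farthest assignment was 127044 bp, to the pseudogene OR4A6P.

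Introns held 26 receptor regions (16%) against 42.0% in the table, and by the authors' annotation 4 of these lay in introns of the assigned receptor gene and 22 in introns of another gene. Intergenic regions made up 35.8% (whole table: 33.2%). Promoter regions were 39.3% (29.1 to 50.3%) of the receptor calls with LGP2 and 50.7% (38.7 to 62.6%) of those with the vector, with overlapping intervals. In the table these shares were 21.4% and 18.4%.

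Regions lying on the RefSeq span of the receptor gene are the ones least dependent on assignment by distance. There were 38, at 36 genes, and 57.9% (40.8 to 73.7%) of them were called only with LGP2, against 54.0% (44.9 to 63.0%) of the 124 off the gene. OR4D1 and OR4D2 lie near each other on chromosome 17 and were both called with LGP2. OR4D1 (chr17:58155026-58155500) held 3 LGP2 and 6 vector reads, and OR4D2 (chr17:58168126-58168418) held 6 and 2 (log2 ratio 1.38). These genes thus leaned in opposite directions by their reads. OR1S2, OR4F14P and OR6Y1 each held 5 LGP2 and 2 vector reads (log2 ratio 1.15). OR10S1 and OR6B3 held 2 and 5 (-0.85), and OR1B1 held 1 and 6 (-1.66). OR7E47P held 3 and 5, and OR2G6 held 3 and 3 in its 3' UTR. Among these most covered gene bodies, neither library was the higher throughout.

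By class, 10 regions lay at 10 of 103 class I genes (9.71%, 4.75 to 17.1%) and 152 at 128 of 761 class II genes (16.8%, 14.2 to 19.7%). All class I genes with a region lie in a single cluster on chromosome 11. Of the class I regions 5 were called with LGP2 and 5 with the vector, with 22 LGP2 and 34 vector reads and a median log2 ratio of -0.43. OR52E8 held 2 LGP2 and 7 vector reads, OR51T1 1 and 5, and OR52X1P 1 and 4. OR56A1 held 4 and 2, and OR51AB1P and OR52E3P 3 and 1. Of the 10 regions 9 were promoter regions, against 41.4% (33.5 to 49.7%) of class II regions. In class II, 84 of 152 regions (55.3%, 47.0 to 63.3%) were called with LGP2.

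The genes with a region belonged to 16 families and to 95 of 299 subfamilies. OR7E, a dispersed subfamily made up almost wholly of pseudogenes, had the most regions, 14 at 10 of its 88 genes, 6 called with LGP2 and 8 with the vector (42.9% with LGP2, 17.7 to 71.1%; median log2 ratio -0.29). OR10H had 6 regions at 4 of its 5 genes, 3 from each library. OR5AK and OR7A had 5 each, 4 of them called with LGP2, and OR7H had 5, with 3 called with LGP2 and 2 with the vector. The 4 LGP2 calls of OR5AK were all at the pseudogene OR5AK3P. All 4 regions of OR8B were called with LGP2, at 4 of 11 genes, with 6 LGP2 and 0 vector reads at OR8B9P, 4 and 0 at OR8B12, 2 and 2 at OR8B10P and 2 and 3 at OR8B4. Of OR5K, a group of clustered receptors on chromosome 3, OR5K1 held 0 and 6 reads, OR5K4 2 and 4, and OR5K3 3 and 3. Subfamilies with this few regions lean by a small number of reads.

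Receptor genes were chained into clusters where neighbouring starts and ends were no more than 500 kb apart, which gave 70 clusters of 2 or more genes and 34 single genes. Regions lay at 39 of the clusters and 9 of the single genes. The density of called regions within cluster spans, whatever gene they were assigned to, was near that of the chromosomes. It was 9.34 per Mb (exact Poisson interval 8.14 to 10.7; 218 regions in 23.3 Mb), against 9.76 over all chromosomes. For calls with LGP2 it was 5.27 (4.38 to 6.29) against 5.36, and for calls with the vector 4.07 (3.29 to 4.98) against 4.38. In the 21 clusters of 10 or more genes it was 9.49 (8.0 to 11.2).

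**Figure D5:**
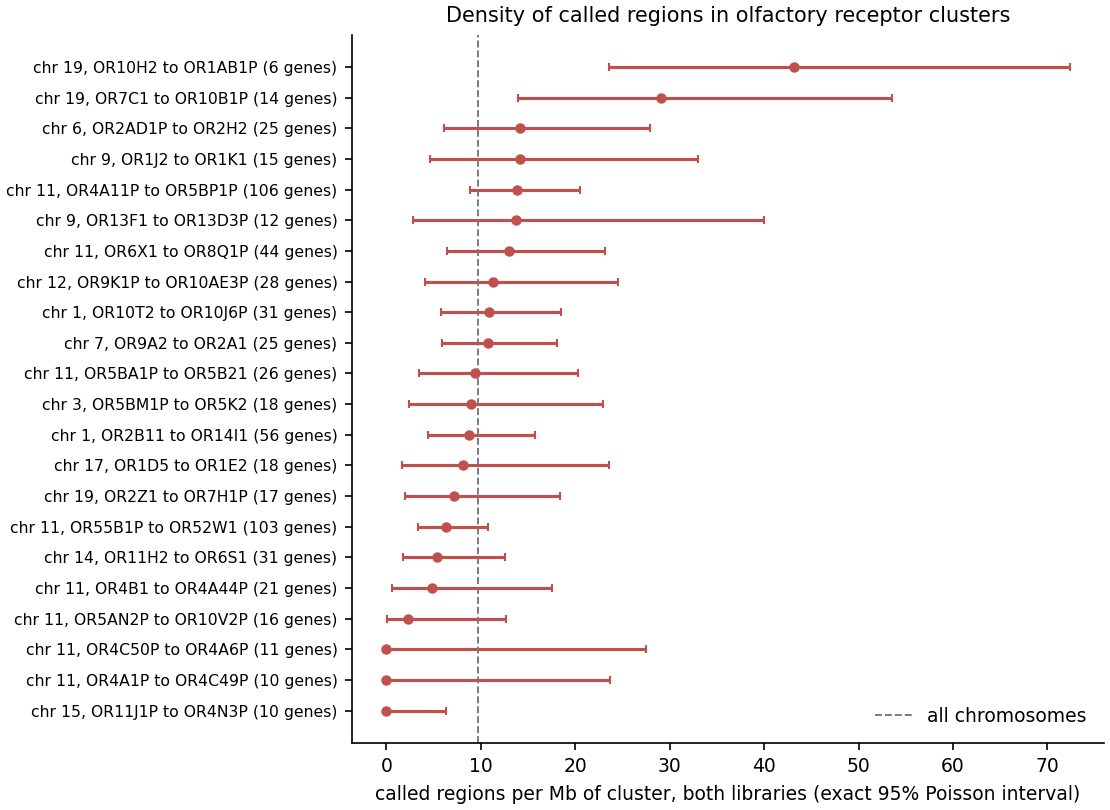
Called regions of both libraries per Mb (x axis) with exact 95% Poisson intervals in each olfactory receptor cluster of 10 or more genes and in the 6-gene OR10H2 cluster of chromosome 19, with the average over all chromosomes (9.76) as a dashed line. The OR10H2 cluster lies at 43.1 per Mb and the OR7C1 cluster at 29.1, while most clusters drawn lie near the line. Other clusters of fewer than 10 genes are not drawn, and some of them are denser.

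Individual clusters spread around this average. Among the 21 larger clusters the density ran from 0 to 29.1 per Mb with a median of 8.97, and the interval of 1 lay above the average and that of 1 below it. The one above was the OR7C1 to OR10B1P cluster of chromosome 19 (14798515 to 15142038; 14 genes), at 29.1 per Mb (14.0 to 53.5), with 6 receptor regions, 3 from each library. The one below was the OR11J1P to OR4N3P cluster of chromosome 15 (10 genes), with 0 regions of any gene, which allows up to 6.32 per Mb. Near the OR7C1 cluster, that of OR10H2 to OR1AB1P (15728024 to 16052716; 6 genes) held 14 regions of any gene, 43.1 per Mb (23.6 to 72.3). Over all 70 clusters, 4 had an interval above the average. Chromosome 19 outside the receptor genes had 13.4 regions per Mb.

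Of the clusters, 3 held 10 or more receptor regions, all on chromosome 11. The first, from OR4A11P to OR5BP1P (55318561 to 57056134; 106 genes), held 22 regions at 19 genes, 12 called with LGP2 and 10 with the vector (54.5%, 32.2 to 75.6%), and 52 LGP2 and 59 vector reads. The second is the class I cluster, from OR55B1P to OR52W1 (4146315 to 6200186; 103 genes), described above. The third, from OR6X1 to OR8Q1P (123753580 to 124602259; 44 genes), held 10 regions at 9 genes, 7 called with LGP2 and 3 with the vector (70.0%, 34.8 to 93.3%), with 31 LGP2 and 20 vector reads and a median log2 ratio of 0.93. It includes the OR8B genes. In all 3 clusters the interval contained the table's share.

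Clusters with fewer regions had calls at varied shares, and the intervals of those named here contain that of the whole table. That of chromosome 1 from OR10T2 to OR10J6P (31 genes) had 6 of 7 regions called with LGP2 (85.7%, 42.1 to 99.6%), and that from OR2B11 to OR14I1 (56 genes) had 5 of 9 (55.6%, 21.2 to 86.3%). The chromosome 3 cluster that holds OR5K had 1 of 4 called with LGP2 (25%, 0.631 to 80.6%), with 5 LGP2 and 17 vector reads. The chromosome 11 cluster from OR5BA1P to OR5B21 (26 genes), where OR1S2 lies, had 1 of 5 (20%, 0.505 to 71.6%). None of the 20 clusters or single genes with 3 or more regions held calls of 1 library only. Of the 21 larger clusters 4 had no receptor region and so no share. In none of the others did the interval leave out the table's share, which it could not do in those with 1 or 2 regions.

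By chromosome, 61 of the 162 regions (37.7%) lay on chromosome 11, which holds 376 of the 864 reference genes (43.5%). There 31 of 61 were called with LGP2 (50.8%, 37.7 to 63.9%), against 59.7% of other regions of that chromosome. On chromosome 1 it was 13 of 18 (72.2%, 46.5 to 90.3%) against 54.4%. On chromosome 19 it was 6 of 12 against 60.0%. Chromosomes 4, 8, 18, 22 and X held no receptor region and hold 38 reference genes together.

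Most genes had a single region (120 of 138), 15 had 2 and 3 had more. Of the 18 genes with 2 or more, 11 had calls of both libraries. The pseudogene OR7H2P, a gene with no receptor neighbour, had 5 regions, all 54096 to 100639 bp away, with LGP2 and vector reads of 5 and 2, 2 and 1, 2 and 6, 1 and 3, and 3 and 3. OR5AK3P had 4 regions within 10778 bp, all called with LGP2, with 3 and 2, 3 and 1, 4 and 2, and 5 and 1 reads. The closest summits there were 999 bp apart, so windows of 2 kb around them share reads and these regions are not independent. OR4F14P had 3 regions, with 3 and 1, 2 and 2, and 5 and 2 reads, the second of them called with the vector. OR10H1 held 2 and 2 reads at a vector call and 3 and 1 at an LGP2 call. Its summits also lay within 2 kb, as did those of OR2W2P and OR7A1P, so these windows share reads too. OR10H4 held 2 and 3 at an LGP2 call and 2 and 5 at a vector call, and OR13A1 held 3 and 1 at an LGP2 call and 1 and 3 at a vector call. How often such genes had calls of both libraries over the whole table was not counted, so the 11 of 18 is not read as a trait of receptor genes.

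Genes of olfactory signal transduction were read beside the receptors. Of 20 listed genes 10 had a region, 34 regions in all, 19 called with LGP2 (55.9%, 37.9 to 72.8%, against 54.9% of the whole table), 14 with the vector and 1 in both. At 2-fold or more higher were 9 (26.5%, against 29.5%) and lower 8 (23.5%, against 25.2%), and the median log2 ratio was 0.16, against 0.15. ADCY3, the cyclase of the olfactory cilium, had a promoter region with 5 LGP2 reads and 1 vector read and another with 2 and 5. ANO2, the calcium-activated chloride channel, had the shared region, with 4 and 4 reads. In their most covered regions CNGB1, a channel subunit, held 6 and 3 reads, ADCY5 6 and 2, and PDE1C, a phosphodiesterase, 5 and 3. The shares of the list lay near those of the whole table.

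Of 20 genes known for their part in receptor gene choice or silencing, mainly from mouse, 10 had a region, 21 in all, 13 called with LGP2 (61.9%, 38.4 to 81.9%, against 54.9% of the whole table) and 8 with the vector. The median log2 ratio was 0.70 against 0.15, and 0.00 in both with regions of 0 reads at the floor. At 2-fold or more higher were 8 regions (38.1%, against 29.5%) and lower 6 (28.6%, against 25.2%). In their most covered regions EBF4, an EBF family factor, held 7 LGP2 reads and 1 vector read, EBF2 5 and 1, and EBF1 2 and 3. DNMT3A, a DNA methyltransferase, and EHMT1, a histone H3 lysine methyltransferase, each held 4 and 1, and MBD2, a methyl-CpG binding protein, held 2 and 6. Low reads limit this list as they do the receptors.

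The overexpressed gene could not be checked by its own level here, since ChIP reads do not measure its RNA. DHX58 had 1 region, called with the vector, at chr17:42112024-42112364, where the LGP2 library gave 6 reads (2.20 to 13.1) and the vector library 3 (0.619 to 8.77). With 1 library per group no difference in this text has a replicate check, and how deeply the libraries were sequenced in all is unknown.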

How the data were processed

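The authors called regions in each ChIP library and sorted them into regions of 1 library or both, and deposited for each region a normalized read density per library (signal), a log2 ratio, a mean log2 level, an unadjusted p-value and the nearest gene. The authors' ratio, level and p-value columns were not used. The log2 ratio was recomputed from the deposited densities. Whole reads were recovered from the densities with 1 read added per library, after a line (intercept 0.105, slope 0.0452), in 100% of regions (tolerance 0.001). These reads are those of a window around each region, and its width of 2 kb is inferred. The aligner, region caller, call threshold and scaling tool are not stated in the sources used here. The labels name build mm10, while positions and gene IDs are human: all 138 symbols matched RefSeq on the same chromosome of GRCh38.p14, and coordinates are read as GRCh38.

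With 1 library per group there was no test. Shares have exact Clopper-Pearson 95% intervals, differences Newcombe intervals, and reads and densities exact Poisson intervals (Python 3.11.15, SciPy 1.17.1, pandas 2.3.3, NumPy 2.4.6), checked on simulated data. The density over all chromosomes counts the span from the first to the last region on each. The floor for 0 reads was 3. Named regions were the 10 with the largest ratio in each direction (ties by mean level, then alphabet), the 10 with the highest mean level, the 10 on gene bodies with most reads, the 6 genes with most regions, and 6 regions of each of 3 lists. Other genes in class, subfamily and cluster sentences, and OR1S2 and OR7C2 for their promoters, were chosen after their values were seen. Members and lists were chosen with earlier results of these data known. Alternatives covered the read minimum, assignment distance, region unit, scaling, reads added, cluster gap, gene type rule and chromosomes.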

Additional observations from a re-analysis of the deposited data

How the results depend on the processing

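Of 38 alternatives over 9 results, 31 left the value within its limits and 7 moved it. The balance of regions past 2-fold turned with the scaling, although each count stayed within its limits and is not among the 7. It went from 51 higher and 38 lower to 34 higher and 48 lower when scaled to a table median of 0.00, where the whole table turned too. With at least 5 reads in the calling library, the share of receptor regions called only with LGP2 became 45.2% (19 of 42, 29.8 to 61.3%; whole table: 48.3%), and 0 clusters instead of 3 held 10 or more regions. In the cluster with most regions the share was 54.5%, 46.4% with a gap of 1000 kb and 40.0% with at least 5 reads. With 5 reads added, 5 regions were 2-fold or more higher and 3 lower (whole table: 3.26% and 1.51%). With at least 5 reads over both libraries, 21 were higher and 21 lower of 87 (whole table: 23.1% and 23.5%). Otherwise the share ran from 54.3 to 57.4%, the difference between intact genes and pseudogenes from -1.39 to -3.54 points, and the difference in gene coverage from 1.11 to 3.74 points. The span of the transcript assigned by the authors, an alternative chosen after seeing the data like that with its introns and exons, took the difference in regions on the gene itself from 36.4 to 23.1 points. No region lay on chromosome 20, so leaving it out changed nothing. Telling pseudogenes by the closing P sorted the members alike, so it could not change their difference in library balance. No paired analysis was possible because each group has 1 library and no result comes from a test; for the same reason no replicate could be left out. Depth limits every single region: none of the 162 had read intervals that did not overlap, and 102 held 5 or fewer reads in all.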

Other observations

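Receptors of other chemical senses had calls at a similar balance. Of 177 genes whose symbols mark taste, vomeronasal or trace amine-associated receptors, 16 had a region, 22 regions in all, 12 called only with LGP2 and 10 only with the vector. The share with LGP2 was 54.5% (32.2 to 75.6%), against 54.9% of the whole table. Of these 5 (22.7%) were 2-fold or more higher with LGP2 and 7 (31.8%) lower, against 29.5% and 25.2%, with a median log2 ratio of 0.14 against 0.15, or 0.00 with regions of 0 reads at the floor. The bitter taste receptor pseudogene TAS2R2P had a region with 5 LGP2 and 9 vector reads and another with 3 and 7. The bitter receptor TAS2R1 had a region with 5 and 4 reads and another with 0 and 5, and the bitter receptor TAS2R60 a region with 5 and 2 and another with 0 and 4. The vomeronasal receptor pseudogene VN1R96P held 1 and 6 and, at another region, 2 and 3, and TAS1R1, a subunit of the umami receptor, 3 and 3.

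The 88 regions of non-receptor genes inside receptor clusters included 41 at coding genes, 18 at long non-coding RNA genes and 14 at processed pseudogenes. The library that was not called held 0 reads at 31.8% (22.3 to 42.6%) of them, against 25.3% of the receptor regions.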
